A study of Ovis aries with 36 samples.

Results

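Subcutaneous adipose tissue from near the shoulder blade and perirenal adipose tissue from around the kidney were compared in sheep fetuses, using 12 RNA-seq libraries of each depot out of the 36 libraries of the study. The libraries were chosen by their tissue label alone, and the 12 longissimus dorsi muscle libraries served to measure skeletal muscle RNA in the fat. Each library was made from an RNA pool of 1 to 3 fetuses of 1 sex and 1 maternal diet, and the pool CF2 held a single fetus. A total of 26 fetuses of 15 Polypay ewes were used, and the ewes, all bred to the same sire, had been fed alfalfa haylage (HY), corn (CN) or dried corn distillers grains (DG) from mid gestation until the fetuses were taken in late gestation. Each depot had 4 pools per diet, 2 of female and 2 of male fetuses, and a pool is named here by its diet letter, its sex letter and its number, as in HF1. No fetus came from an unfed or untreated ewe, so the depots were compared across the 3 diets with the pool code as a block. The fetuses of 1 pool, and pools whose fetuses shared a dam, are not independent animals.

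Fat in the newborn lamb has to make heat. Perirenal fat of the late ovine fetus is the best known brown depot, in which the uncoupling protein UCP1 lets protons re-enter mitochondria without making ATP, and thyroid hormone and beta-adrenergic signals drive the gene. Subcutaneous fat over the trunk arises from other mesoderm, and adipose depots keep the HOX and T-box codes of the body region in which they formed. A depot comparison therefore reads out both metabolic state and position.

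Total counts per library were 6705766 to 20272024 in subcutaneous fat (median 13881270) and 7802700 to 15913813 in perirenal fat (median 10776612). Loci had been assembled separately in each tissue, so the depots were joined by gene name. Of 22457 names in subcutaneous and 22450 in perirenal fat, 22020 were in both, and they held 82.0% to 89.8% of the counts of a library. A value in CPM below is the count of a gene scaled to the summed count of all loci in that library.

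The subcutaneous libraries went against their label in 1 respect, which has to precede every depot result. They carried skeletal muscle RNA. The muscle RNA share of a library was taken as the median, over 27 sarcomere and muscle metabolism genes, of its CPM relative to the mean of the muscle libraries. In perirenal fat the share was 0.0354% to 0.550% with a median of 0.104%. In subcutaneous fat it was lowest in HF1 (1.09%), DM1 (1.33%), HM1 (3.5%) and CM1 (5.20%). It was 17.0% in CM2, 31.1% in CF1, 38.3% in HM2, 68.9% in CF2, 98.8% in DF2, 105% in HF2, 108% in DM2 and 124% in DF1. The muscle libraries themselves ranged from 84.4% to 111%, so by this median 4 subcutaneous libraries lay inside or above that range. Taken from the summed CPM of the same genes, the share was lower. It was 64.4% in DF2, 75.9% in DM2, 92.1% in HF2 and 109% in DF1, against 93.2% to 113% in muscle. Its subcutaneous mean was 40.1%, against 50.2% for the median measure, which is used below. These 4 libraries also held 652 to 1768 CPM of the adipocyte gene ADIPOQ, against 11.5 CPM on average in muscle. The share was higher in subcutaneous fat in 12 of 12 pools, by 50.0 percentage points on average (two-sided exact sign-flip permutation test, p = 0.000488, the smallest that 12 pools allow). Of 26 skeletal muscle marker genes tested, 26 were called higher in subcutaneous fat over all pools and 25 over the 4 pools with the lowest shares.

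**Figure D1:**
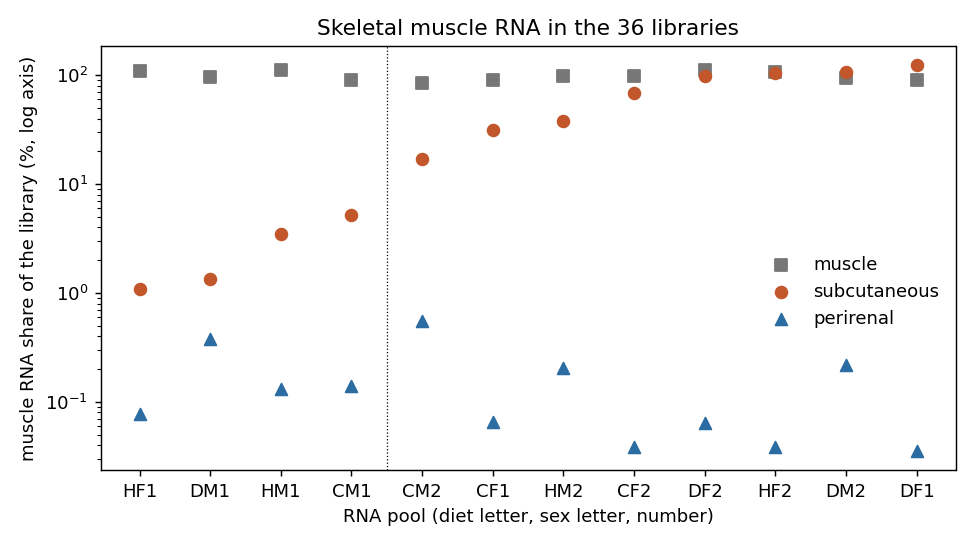
Muscle RNA share of each library, in percent on a log axis, for the 12 pools ordered by their subcutaneous library; squares are muscle, circles subcutaneous fat and triangles perirenal fat, with 1 library per symbol. The 4 pools left of the dotted line have subcutaneous shares of 1.09% to 5.20%, while perirenal shares stay at or under 0.550% in every pool.

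A fit of all pools and a fit of these 4 are therefore given side by side. Over all 12 pools, 12089 genes were tested with edgeR's quasi-likelihood test at FDR ≤0.05 (Benjamini-Hochberg). Of these, 3822 were higher in subcutaneous fat (31.6% of the genes tested) and 3868 were higher in perirenal fat (32% of the genes tested). Over the pools HF1, DM1, HM1 and CM1 alone, in both depots, 12011 genes were tested, 1175 were higher in subcutaneous fat (9.78%) and 1167 higher in perirenal fat (9.72%). Of these 4-pool calls, 2256 were also called in the same direction over 12 pools and 0 in the opposite direction. The 4 pools are part of the 12, so this is a description and not a second test. By the study's pool list, HF1 and HM1 hold fetuses of the same dam, so the 4 pools are not all independent. Sex and diet are not balanced among them. Only HF1 is female, and HF1 and HM1 are both HY, with CM1 from CN and DM1 from DG.

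A linear mixture of perirenal-like fat with muscle RNA was used to set genes aside. A called gene was set aside where the mean difference in muscle share, multiplied by the muscle minus perirenal difference in CPM, gave at least 0.25 of the depot difference. Over 12 pools this removed 2042 of the genes higher in subcutaneous fat and 2913 of those higher in perirenal fat, leaving 1780 and 955. With an average share this high, the mixture also removes genes that muscle lacks, since a library that is partly muscle holds less of them. UCP1 itself was set aside by that rule. The term depot gene is therefore used below for a stricter group. A depot gene was called in 1 direction in both fits and stood at the same loci in both assemblies. This same-loci condition asks for 1 locus under the name in each assembly and for no merged name that holds it. The same names must share its span in both, and the spans must overlap by at least 0.8. In addition, less than 0.25 of its difference was explained by muscle RNA in the 4 pools, where the mean share difference was 2.60 percentage points. Of 8243 genes that could meet these conditions, 430 were depot genes higher in subcutaneous fat (5.22%) and 559 were depot genes higher in perirenal fat (6.78%). They changed by at least 2-fold in the 4 pools in 348 and 473 cases. Muscle values were joined by name alone, without matching loci. Mean subcutaneous CPM (0.1 added) was at least 2-fold higher in the other 8 libraries than in these 4 for 42 and 7 depot genes. It was at least 2-fold lower for 4 and 19. A depot gene is therefore not cleared of muscle RNA.

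How the loci were built also moved with the result. Each assembly has its own locus ends, reads beyond an end are not counted, and several overlapping loci can share reads. Of the 12 genes of largest change in each direction that were named by size over 12 pools, 9 higher in subcutaneous fat and 8 higher in perirenal fat stood at the same loci in both assemblies. HIPK1 and ZNF227 were listed at 0 in all 12 perirenal libraries, in which a name merging HIPK1 with OLFML3 was 135 to 207 CPM and one merging ZNF227 with ZNF45 was 92.8 to 142 CPM. PCDHGC3 was at 0 in all 12 subcutaneous libraries, in which a name merging it with PCDHGA2 was 9.99 to 27.1 CPM. How much of each difference the merging accounts for was not tested. ALAD was 58.0 to 269 CPM in subcutaneous and 0 to 2.69 CPM in perirenal fat, where a name merging ALAD with HDHD3 was 154 to 236 CPM. MATR3, CAPS and MLLT11 also missed the same-loci condition. Requiring in addition that a locus overlap no other and that its ends lie within 100 bases in both assemblies left 3987 genes, of which 85 were depot genes higher in subcutaneous fat (2.13%) and 159 were higher in perirenal fat (3.99%). Genes that meet that last condition are called end-matched below. Locus ends could also differ because a gene is nearly silent in 1 depot, so the condition may drop genes of that kind, which was not tested.

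Thermogenic genes were mostly higher in perirenal fat. Each list count here and below stands beside 31.6% (subcutaneous) and 32% (perirenal) of all genes called over 12 pools. Over 4 pools these shares of all genes were 9.78% and 9.72%. Among all genes that could be depot genes, 5.22% (subcutaneous) and 6.78% (perirenal) were. Of 18 genes of brown fat and heat production, 11 were tested over 12 pools, 8 were higher in perirenal and 3 in subcutaneous fat, and in the 4 pools the counts were 7 and 2. The median log2 fold change (subcutaneous minus perirenal) of the list was -1.03 over 12 pools and -1.13 over 4, against -0.0043 and 0.0075 over all genes tested. With muscle share as a covariate over 12 pools 3 of the 11 were called, and within HY pools 6. Of its 8 members at the same loci, 7 were depot genes, each of them higher in perirenal fat, and the eighth, LHX8, was called only over 12 pools. The 3 members higher in subcutaneous fat over 12 pools, PPARGC1A, PPARGC1B and PPARA, missed the same-loci condition. In bulk RNA, fewer cells of a type and less RNA per cell cannot be told apart.

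UCP1 was 412 to 1176 CPM in perirenal fat with a median of 712 CPM. In subcutaneous fat it was 8.14 to 138 CPM with a median of 67.8 CPM, and the depots did not overlap. In the 4 pools of low muscle RNA it was 138 CPM in CM1, 61.5 CPM in DM1, 67.8 CPM in HF1 and 90.2 CPM in HM1, against 817, 501, 624 and 412 CPM in the perirenal libraries of the same pools. Subcutaneous fat was thus lower in each pair, but the transcript was present in all 12 libraries, while the muscle libraries held at most 0.203 CPM. The log2 fold change was -2.66 ± 0.25 (SE, n = 4 pools, edgeR FDR = 3.7e-05) and -3.47 over 12 pools. The locus of UCP1 lies in a span shared with TBC1D9 and ELMOD2 (Oar_v3.1 chr17:16744036-16885293).

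The other thermogenic depot genes include transcription factors, a receptor, a deiodinase and proteins of the lipid droplet and respiratory chain. CIDEA, a lipid droplet protein of brown fat, was 90.4 to 228 CPM in perirenal and 10.3 to 92.9 CPM in subcutaneous fat, with 1 subcutaneous library, HF1, above the lowest perirenal value. PRDM16, the transcriptional regulator of brown adipocyte identity, was 4.56 to 12.4 CPM against 0.823 to 4.14 CPM without overlap (log2 fold change -1.57 ± 0.30 in 4 pools, edgeR FDR = 0.0039). EBF2, a factor that marks brown preadipocytes, was 189 to 325 CPM against 48.5 to 169 CPM, and its 4-pool call (edgeR FDR = 0.044) held in 1 of the 4 fits that leave out a pool. ADRB3, the beta-adrenergic receptor of adipocytes, was 27.9 to 54.2 CPM against 2.22 to 20.7 CPM and is end-matched. DIO2, which converts thyroxine to its active form inside the cell, was 63.2 to 178 CPM against 6.56 to 58.1 CPM. COX7A1, a cytochrome oxidase subunit of brown fat and striated muscle, was 246 to 545 CPM in perirenal and 112 to 256 CPM in subcutaneous fat, with 388 CPM on average in muscle. For ADRB3, PRDM16, EBF2 and DIO2 each perirenal library exceeded each subcutaneous one, whereas the ranges of CIDEA and COX7A1 overlapped. Of all 559 depot genes higher in perirenal fat, 356 (63.7%) did not overlap between depots, so non-overlap was not particular to these genes.

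Hormone genes added a pair of larger differences. Of 25 tested from a list of 42, 10 were higher in subcutaneous and 7 in perirenal fat over 12 pools, and 2 and 5 over 4 pools, and the list medians (0.029 and 0.17) lay near 0. DIO1, the type 1 deiodinase, was 51.8 to 252 CPM in perirenal and 1.33 to 36.1 CPM in subcutaneous fat, without overlap. Its log2 fold change was -2.51 ± 0.52 in the 4 pools (edgeR FDR = 0.0068), but with 1 of these pools left out the FDR rose to at most 0.141. PRLR, the prolactin receptor, was 81.0 to 168 CPM in perirenal fat, against 1.27, 0.531, 0.207 and 2.02 CPM in subcutaneous CM1, DM1, HF1 and HM1. No subcutaneous library exceeded 2.02 CPM, and the log2 fold change was -6.81 ± 0.44 (edgeR FDR = 6.2e-06). The perirenal locus of PRLR runs 9467 bases further than the subcutaneous one, and how much of the fold this accounts for was not tested.

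**Figure D2:**
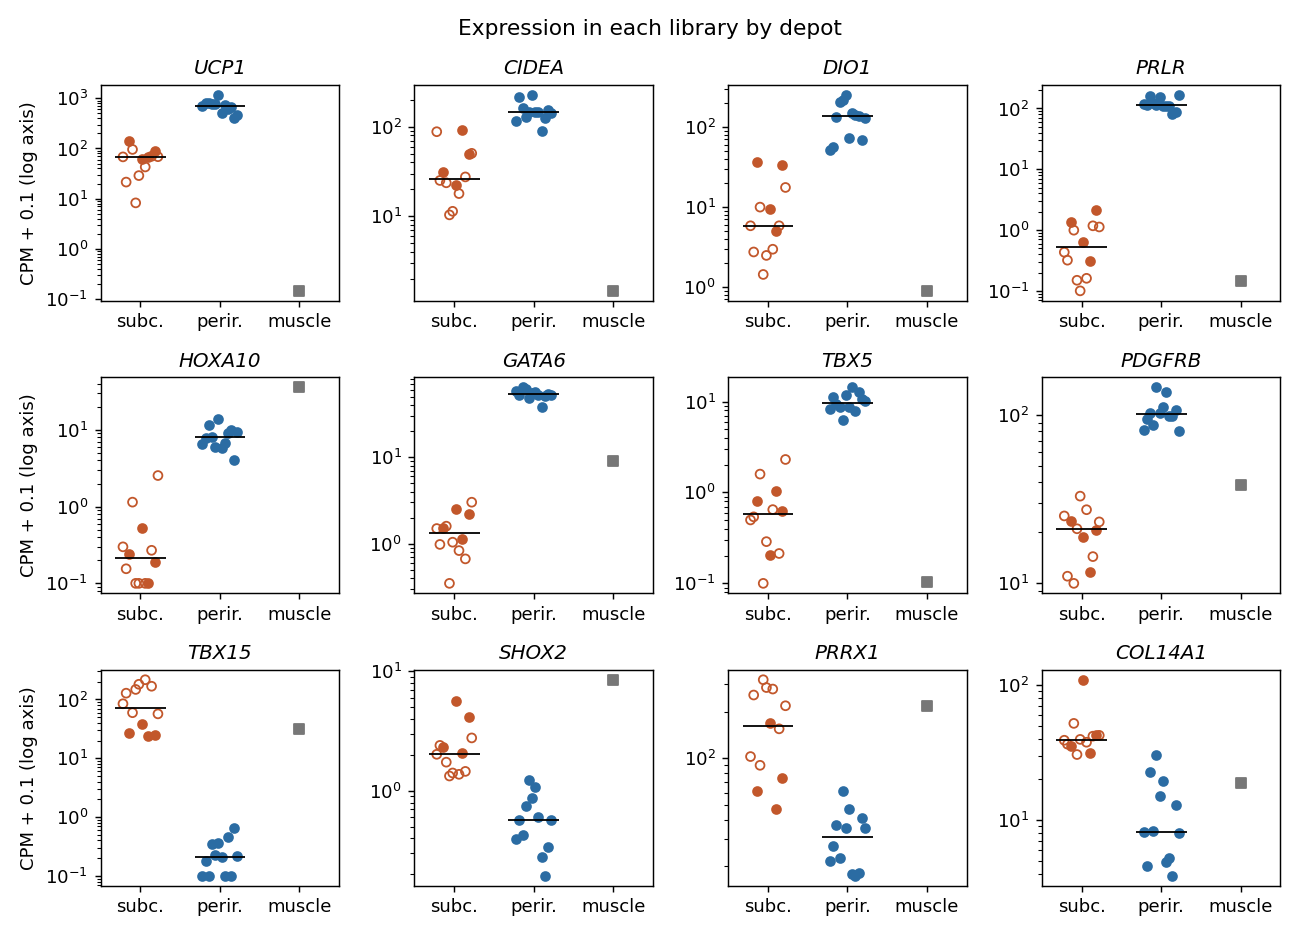
CPM plus 0.1, on a log axis, of 12 genes in each of the 12 subcutaneous and 12 perirenal libraries, with the median as a line and the mean of the muscle libraries as a square; filled orange points are the 4 subcutaneous libraries of low muscle RNA and open ones the other 8. For UCP1 the 8 open points (8.14 to 95.6 CPM) reach lower than the 4 filled ones (61.5 to 138 CPM), whereas for TBX15 the 8 open points (56.9 to 217 CPM) lie above the 4 filled ones (23.6 to 38.6 CPM).

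More lipid genes were called higher in perirenal than in subcutaneous fat. Of 14 adipocyte genes tested, 11 were higher in perirenal and 1 (RBP4) in subcutaneous fat over 12 pools, but only 4 and 0 over 4 pools, and the list median moved from -0.91 to -0.47. ADIPOQ, which encodes adiponectin, was 2878 to 10636 CPM in perirenal and 652 to 5834 CPM in subcutaneous fat over 12 pools, and 1794 to 5834 CPM in the 4 subcutaneous libraries of low muscle RNA. Its log2 fold change was -1.18 over 12 pools (edgeR FDR = 0.002) and -0.27 ± 0.29 over 4 (edgeR FDR = 0.57), and the name stands at 2 subcutaneous loci and 1 perirenal locus.

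3 adipocyte genes were depot genes, each higher in perirenal fat. DGAT1, which completes triacylglycerol synthesis, is end-matched (chr9:13566141-13576105) and was 262 to 717 CPM in perirenal against 17.7 to 139 CPM in subcutaneous fat, a log2 fold change of -2.56 ± 0.65 in 4 pools (edgeR FDR = 0.023). The subcutaneous values of DGAT1 were uneven, with 139 CPM in HF1 and 115 CPM in HM1 but 36.1 CPM in CM1 and 17.7 CPM in DM1. PNPLA2, the first lipase of triacylglycerol breakdown, was 32.1 to 68.7 CPM against 6.59 to 33.4 CPM and is end-matched. PLIN1, the droplet coat protein, was 402 to 941 CPM against 3.71 to 41.5 CPM, a log2 fold change of -4.96 ± 0.30, but its locus spans 15792 bases in the perirenal and 12926 bases in the subcutaneous assembly.

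Of 15 fatty acid synthesis genes, 9 were higher in perirenal and 2 in subcutaneous fat over 12 pools, and 4 and 1 over 4 pools (list medians -0.63 and -0.44). ACLY, which supplies cytosolic acetyl-CoA from citrate, did not pass the test in either fit, with log2 fold changes of -0.04 and 0.24 ± 0.35 (edgeR FDR = 0.89 and 0.68). SREBF1, the transcription factor of the pathway, was 10.99 to 33.2 CPM in perirenal and 2.34 to 11.02 CPM in subcutaneous fat. SLC25A1, the mitochondrial citrate carrier, is end-matched and was 8.23 to 25.2 CPM against 1.19 to 13 CPM (log2 fold change -1.70 ± 0.41, edgeR FDR = 0.015). ELOVL6, a fatty acid elongase, was higher in subcutaneous fat at 94.3 to 783 CPM against 20 to 121 CPM, but its name stands at 1 subcutaneous locus and 2 perirenal loci.

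Of 14 fatty acid oxidation genes tested, 9 were higher in perirenal and 2 in subcutaneous fat over 12 pools, and 5 and 0 over 4 pools, with list medians of -0.66 and -0.55. ACADL and ACADS, the long- and short-chain acyl-CoA dehydrogenases, were 76.0 to 151 CPM and 91.4 to 177 CPM in perirenal fat, and 44.7 to 102 CPM and 19.5 to 113 CPM in subcutaneous fat. Both are end-matched, and their log2 fold changes in 4 pools were -0.91 ± 0.22 (edgeR FDR = 0.017) and -1.13 ± 0.32 (edgeR FDR = 0.033). CPT1B, the muscle-type carnitine palmitoyltransferase, was lower in subcutaneous fat by 1.28 ± 0.33 on the log2 scale, although the muscle libraries averaged 80.7 CPM and the subcutaneous ones held 10.1 to 54.3 CPM. ECI1, an enoyl-CoA isomerase, was 43.0 to 63.5 CPM in perirenal and 9.10 to 40.2 CPM in subcutaneous fat. CPT1A, the liver-type isoform of CPT1B and the first gene of the list, was called higher in perirenal fat in both fits, but its perirenal locus is 68188 bases long and its subcutaneous locus 44329.

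Fewer than 0.5 of the respiratory chain subunits were called, most of them higher in perirenal fat. Of 47 tested, 19 (40.4%) were higher in perirenal and 4 (8.51%) in subcutaneous fat over 12 pools, and 12 and 1 over 4 pools. The list medians were -0.25 and -0.40. 11 subunits were depot genes higher in perirenal fat: NDUFA2, NDUFA8, NDUFB10, NDUFS8 and NDUFV1 of complex I, SDHA of complex II, UQCRC1, UQCR10 and CYC1 of complex III, COX5B of complex IV and ATP5D of the ATP synthase. NDUFV1 was 114 to 490 CPM in perirenal and 23.1 to 126 CPM in subcutaneous fat, a log2 fold change of -2.03 ± 0.30 (edgeR FDR = 0.00082). UQCR10 was 39.8 to 154 CPM against 5.77 to 96.2 CPM and fell by 2.36 ± 0.43 on the log2 scale in subcutaneous fat of the 4 pools (edgeR FDR = 0.0029). Both overlapped between depots over 12 pools. The locus named for ATP5I, another ATP synthase subunit, was the 1 depot gene of the list that was higher in subcutaneous fat. It was 14.9 to 61.5 CPM there against 10.7 to 19.6 CPM, and averaged 4.89 CPM in muscle. This locus is 214 bases long in both assemblies, and whether it stands for the whole gene was not tested. Muscle itself holds such transcripts (NDUFV1 averaged 179 CPM in muscle and 254 CPM in perirenal fat, ATP5D 270 and 223 CPM). Of the 11 perirenal depot genes listed, only COX5B and NDUFS8 differed less in the 4 pools than over 12 pools. The change between fits was small beside the SE for NDUFV1 (-1.95 over 12 pools, -2.03 over 4) and CYC1 (-1.38 and -1.39). The part of muscle RNA in these changes was not tested. Of 14 citrate cycle enzymes, 10 stood at the same loci and 0 were depot genes, beside 5.22% and 6.78% of all genes. So few members cannot show a lower share. CS, citrate synthase, was higher in subcutaneous fat in both fits with 1 subcutaneous and 3 perirenal loci under its name.

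HOX genes were called higher in perirenal fat more often than in subcutaneous fat. Of 39 HOX names, 31 were joined and 17 passed the filter on low counts. Over 12 pools 10 (58.8%) were higher in perirenal and 4 (23.5%) in subcutaneous fat, and over 4 pools 7 and 1. HOXA10 is end-matched (chr4:68858041-68863494). It was 3.99 to 13.7 CPM in perirenal fat and 0.141, 0.425, 0 and 0.0879 CPM in subcutaneous CM1, DM1, HF1 and HM1, and no subcutaneous library exceeded 2.44 CPM. Its log2 fold change in 4 pools was -5.28 ± 0.61 (edgeR FDR = 0.00015). HOXC10 was 3.03 to 12.7 CPM in perirenal and at most 0.149 CPM in subcutaneous fat. HOXB7 was 15.0 to 21.3 CPM against 0.563 to 3.45 CPM, a log2 fold change of -3.62 ± 0.39. HOXA4, a member of the anterior group, was 5.83 to 11.4 CPM against 0.844 to 5.87 CPM (-1.87 ± 0.38, edgeR FDR = 0.0061). With 3 loci under its name in each assembly, it missed the same-loci condition. HOXA9 (28.5 to 76.6 CPM against 0 to 0.630 CPM) and HOXC9 (9.09 to 17.0 CPM against 0.487 to 3.52 CPM) differed in the same direction and also missed that condition.

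HOXA10, HOXC10 and HOXA9 were also high in muscle. The longissimus libraries averaged 35.8 CPM of HOXA10, 17.5 CPM of HOXC10 and 67.2 CPM of HOXA9. Among the 8 muscle-rich subcutaneous libraries, HOXA10 was 0 to 2.44 CPM, HOXC10 0 to 0.149 CPM and HOXA9 at most 0.630 CPM, although the muscle share in these 8 was 17.0% to 124%. Longissimus RNA at these shares would bring in more of these transcripts, so the mixture with longissimus values is an approximation. Muscle loci were not matched to the fat loci, so muscle RNA unlike longissimus RNA and a locus difference cannot be told apart. The origin of the muscle RNA in subcutaneous fat was not tested.

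TBX15 marked the subcutaneous depot. This T-box factor, known from trunk skin, skeletal muscle and adipose precursors, was at most 0.558 CPM in the 12 perirenal libraries. In subcutaneous fat it was 26.7 CPM in CM1, 38.6 CPM in DM1, 23.6 CPM in HF1 and 24.8 CPM in HM1, and 56.9 to 217 CPM in the other 8 libraries. The log2 fold change was 6.69 ± 0.52 in the 4 pools (edgeR FDR = 1.5e-05) and 9.26 over 12. Longissimus libraries held 12.8 to 47.9 CPM, below each of the 8 muscle-rich subcutaneous libraries. HF1, with a muscle share of 1.09%, still had 23.6 CPM. The locus (chr1:95558759-95683866) starts 2185 bases earlier in the subcutaneous than in the perirenal assembly.

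Of 27 positional factors tested from a list of 74, TBX15 included, 11 were higher in subcutaneous and 9 in perirenal fat over 12 pools, and 7 and 7 over 4 pools. Their median log2 fold changes were -0.023 and 0.11, so the list as a whole did not lean to either depot. Beside TBX15, the depot genes higher in subcutaneous fat were SHOX2, PRRX1, MEOX1 and OSR2. SHOX2 is end-matched (chr1:227507348-227515800) and was 1.23 to 5.52 CPM in subcutaneous and 0.0946 to 1.13 CPM in perirenal fat, without overlap (log2 fold change 3.16 ± 0.44 in 4 pools, edgeR FDR = 0.00055). PRRX1, also end-matched, was 46.6 to 321 CPM against 17.3 to 61.3 CPM, and its log2 fold change fell from 2.5 over 12 pools to 1.30 ± 0.23 over 4 (edgeR FDR = 0.0027), with 219 CPM on average in muscle. MEOX1 was 23.7 to 65.5 CPM against 8.21 to 32.0 CPM, and OSR2 1.44 to 7.57 CPM against 0 to 1.36 CPM. LMX1A, which passed only the filter of the 12-pool fit, was 0.844 to 5.27 CPM against 0 to 0.314 CPM. OSR1 and PRRX2 were higher in subcutaneous fat in both fits at loci that were not the same.

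The positional depot genes higher in perirenal fat were WT1, GATA6, TBX5, NR2F1 and TBX18. GATA6 was 38.5 to 64.4 CPM in perirenal and 0.247 to 2.91 CPM in subcutaneous fat, a log2 fold change of -4.85 ± 0.26 in 4 pools (edgeR FDR = 3.6e-06). WT1 was 5.93 to 11 CPM in perirenal fat and 0 counts in each of the 4 subcutaneous libraries of low muscle RNA, and at most 0.315 CPM in the other 8. Set against a floor of 3 counts over those 4 libraries, WT1 was at least 112-fold higher in perirenal fat. TBX5 was 6.10 to 14.3 CPM against 0 to 2.20 CPM, NR2F1 18.1 to 33.8 CPM against 0.996 to 4.30 CPM, and TBX18 33.0 to 47.9 CPM against 9.67 to 35.3 CPM. TBX18 is end-matched and had the smallest of these differences, -0.80 ± 0.20 on the log2 scale (edgeR FDR = 0.017). WT1 is also a marker of mesothelium, the lining of the body cavity. Of the 11 mesothelial markers, 9 were joined and 2 tested, and their summed level was 6.53 to 15.8 CPM in perirenal and 0.621 to 10.7 CPM in subcutaneous fat, with WT1 the highest gene.

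**Figure D3:**
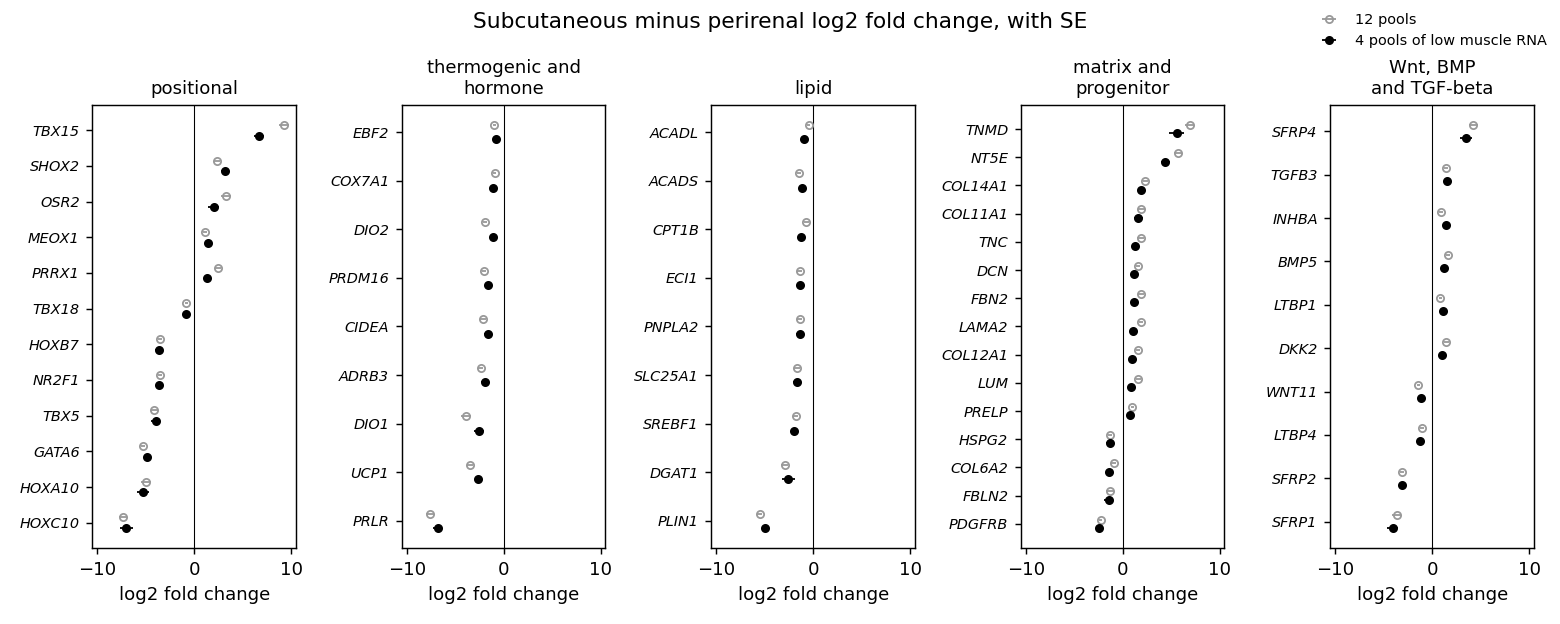
Log2 fold change, subcutaneous minus perirenal, of depot genes by group, with the SE as a bar; open grey circles are the fit of 12 pools and filled black circles the fit of the 4 pools of low muscle RNA. By the definition of a depot gene, each gene lies on the same side of 0 in both fits. TBX15 is at 6.69 and PRLR at -6.81 over 4 pools.

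Of the 13 lists, matrix genes had the most calls higher in subcutaneous fat, and fewer of them were called in the pools of low muscle RNA. Of 52 tested, 34 (65.4%) were higher in subcutaneous and 8 (15.4%) in perirenal fat over 12 pools. Over 4 pools the counts were 15 and 4, and the list median fell from 0.78 to 0.46. Of 32 members at the same loci, 10 and 3 were depot genes, beside 5.22% and 6.78% of all genes. Of these, 7 and 3 are end-matched. COL14A1, a fibril-associated collagen, was 30.4 to 109 CPM in subcutaneous and 3.79 to 30.0 CPM in perirenal fat, a log2 fold change of 1.93 ± 0.32 in 4 pools (edgeR FDR = 0.0018). It stayed called with each of the 4 pools left out, and muscle averaged 18.7 CPM. COL12A1, a collagen of the same class, was 45.1 to 180 CPM against 18.5 to 60.2 CPM. COL11A1, a minor fibrillar collagen, was 7.56 to 42.9 CPM against 2.11 to 23.6 CPM.

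The small proteoglycans DCN, LUM and PRELP, which bind collagen fibrils, were also among them. DCN was 587 to 1462 CPM in subcutaneous and 200 to 597 CPM in perirenal fat, with 634 CPM on average in muscle and a difference on the log2 scale of 1.16 ± 0.33 in 4 pools (edgeR FDR = 0.032). LUM and PRELP had smaller log2 fold changes of 0.89 ± 0.28 and 0.76 ± 0.23 and lay close to the threshold (edgeR FDR = 0.05 and 0.048). FBN2, the fibrillin of developing microfibrils, was 7.45 to 45.4 CPM against 3.03 to 23.1 CPM, and TNC, an adhesion-modulating glycoprotein of tendon and dermis, 5.38 to 34.3 CPM against 0.946 to 28.7 CPM. LAMA2, the laminin chain of muscle basement membrane, averaged 305 CPM in muscle and was 35.7 to 83.8 CPM in the 4 subcutaneous libraries and 87.3 to 266 CPM in the other 8, against 24.8 to 53.9 CPM in perirenal fat. TNMD, tenomodulin, was 2.13 to 36.4 CPM against at most 0.478 CPM in perirenal fat and 1.25 CPM on average in muscle (log2 fold change 5.56 ± 0.78, edgeR FDR = 0.00053).

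The fibrillar collagens that dominate connective tissue did not pass the test in the 4 pools. COL1A1 was 271 to 1271 CPM in subcutaneous and 90.2 to 1188 CPM in perirenal fat, with log2 fold changes of 1.39 over 12 pools (edgeR FDR = 0.006) and 0.37 ± 0.38 over 4 (edgeR FDR = 0.54). COL1A2 had 1.21 and 0.59 ± 0.41 (edgeR FDR = 0.36 over 4 pools). The 3 matrix depot genes higher in perirenal fat were HSPG2, COL6A2 and FBLN2. HSPG2, perlecan, was 55.3 to 183 CPM there and 15.5 to 97.5 CPM in subcutaneous fat, COL6A2 14.5 to 52.0 CPM against 4.18 to 31.3 CPM, and FBLN2 4.61 to 37.7 CPM against 0.447 to 14.6 CPM. COL15A1, a basement membrane collagen, was 947 to 1440 CPM against 197 to 515 CPM, and LOX, which crosslinks collagen, 6.08 to 60.6 CPM against 77.8 to 252 CPM in the other direction, but both names stand at more than 1 locus.

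Among progenitor markers, PDGFRB and NT5E were the only depot genes, 1 in each direction. PDGFRB, the PDGF receptor of pericytes and fat precursors, was 80.0 to 146 CPM in perirenal and 9.84 to 32.8 CPM in subcutaneous fat (log2 fold change -2.46 ± 0.21 in 4 pools, edgeR FDR = 2.3e-05), with locus ends 5804 bases apart. NT5E, the ectonucleotidase CD73 of mesenchymal cells, was 6.83 to 30.8 CPM in subcutaneous and 0 to 1.13 CPM in perirenal fat (4.41 ± 0.46, edgeR FDR = 7.8e-05). Of 15 progenitor genes tested, 6 (40%) were higher in subcutaneous and 4 (26.7%) in perirenal fat over 12 pools, beside 31.6% and 32% of all genes. Over 4 pools the counts were 3 and 2. The list medians were 0.33 over 12 pools and -0.076 over 4, so the list as a whole did not lean to 1 depot. MEDAG and THY1 differed in opposite directions at loci that were not the same.

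Secreted signals of the Wnt, BMP and TGF-beta families were called more often in subcutaneous fat. Of 33 tested, 16 (48.5%) were higher in subcutaneous and 7 (21.2%) in perirenal fat over 12 pools. Over 4 pools the counts were 7 and 4. The list medians were 0.50 over 12 pools and 0.28 over 4. The secreted frizzled-related proteins, which bind Wnt ligands, took opposite sides. SFRP1 was 1.86 to 41.4 CPM in perirenal and 0 to 2.88 CPM in subcutaneous fat (log2 fold change -4.09 ± 0.52 in 4 pools), and SFRP2 13.4 to 76.2 CPM against 1.49 to 5.63 CPM (-3.12 ± 0.27). SFRP4 was 7.31 to 59.5 CPM in subcutaneous and 0.379 to 7.81 CPM in perirenal fat (3.46 ± 0.61), and all 3 stayed called with each of the 4 pools left out. DKK2, an antagonist at the Wnt co-receptor, was higher in subcutaneous fat (1.0 ± 0.29, edgeR FDR = 0.04), and WNT11, a ligand, in perirenal fat (-1.12 ± 0.33, edgeR FDR = 0.039). DKK3 was called over 12 pools and had 0.70 ± 0.23 over 4 (edgeR FDR = 0.063).

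On the TGF-beta side, TGFB3 is end-matched and was 18.9 to 82.4 CPM in subcutaneous and 8.01 to 23.6 CPM in perirenal fat (log2 fold change 1.52 ± 0.33, edgeR FDR = 0.0084). INHBA, the activin A subunit, was 15.9 to 80.0 CPM against 9.30 to 36.8 CPM, and BMP5 13.2 to 34.0 CPM against 5.62 to 11.9 CPM. The latent TGF-beta binding proteins, which hold the ligand in the matrix, differed in direction, with LTBP1 at 160 to 743 CPM in subcutaneous against 117 to 308 CPM in perirenal fat and LTBP4 at 11.9 to 67.8 CPM against 39.1 to 113 CPM. LTBP1 had a log2 fold change of 1.08 ± 0.28 and LTBP4 of -1.30 ± 0.28 in 4 pools.

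Of 29 cell division genes tested, 2 (6.9%) were higher in subcutaneous and 9 (31%) in perirenal fat over 12 pools, beside 31.6% and 32% of all genes. Over 4 pools 0 and 2 were called, and 1 of them, the replication helicase subunit MCM5 (-0.98 ± 0.28, edgeR FDR = 0.034), was a depot gene. MKI67, the proliferation marker, was 8.90 to 29.3 CPM in subcutaneous and 14.3 to 35.9 CPM in perirenal fat, and its log2 fold change of -0.48 ± 0.33 did not pass (edgeR FDR = 0.36).

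**Figure D4:**
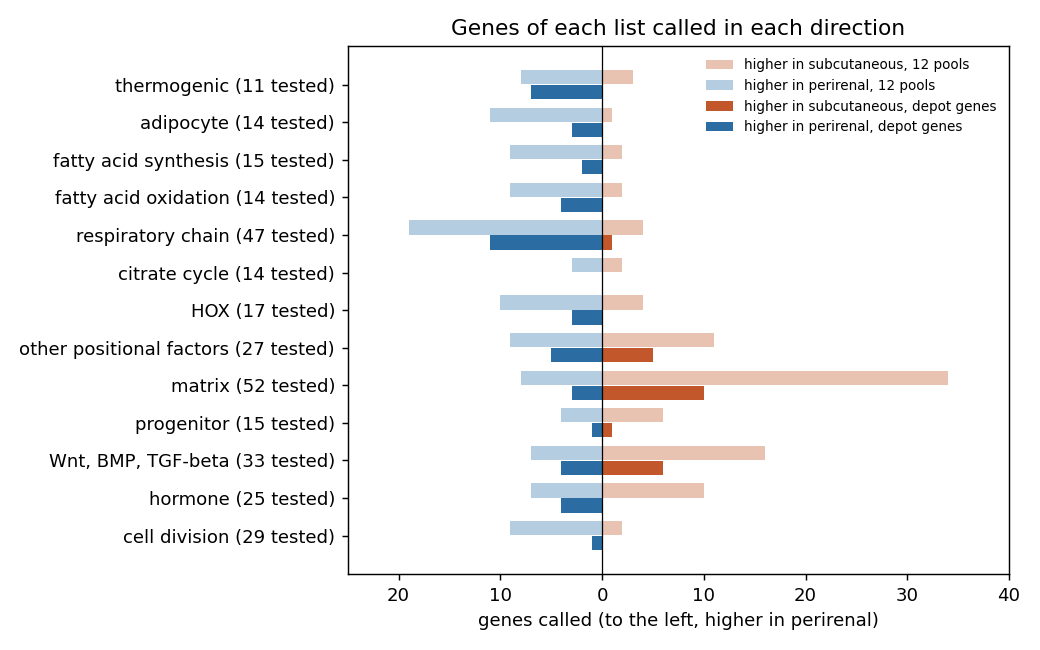
Number of genes of each list called at FDR ≤0.05 higher in subcutaneous fat (right of 0) and in perirenal fat (left of 0); pale bars are the fit of 12 pools and dark bars the depot genes. Matrix genes shrink from 34 to 10 on the subcutaneous side and thermogenic genes from 8 to 7 on the perirenal side.

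Depot genes were also ranked by the 4-pool log2 fold change. Those ranked had a mean of at least 5 CPM in the higher depot over the 4 pools. Their 4 subcutaneous values did not overlap the 12 perirenal ones. The 12 higher in subcutaneous fat were UGT8, GNG4, NRN1, PLEKHB1, AQP4A, IZUMO2, TBX15, MXD1, B3GALT6, PAK3, FBXO45 and MKX, and the 12 higher in perirenal fat were WT1, which has no rank because it was at 0 counts in the 4 subcutaneous libraries, and DLX4, ESPNL, HOXC10, KCND3, PRLR, FAM83H, ASB13, SLC24A5, TRIM62, LDHB and SPATC1, a ranking chosen after values were seen. Only 1 of each 12 is end-matched, PAK3 and SPATC1. PAK3, a p21-activated kinase (119417 bases in both assemblies), was 21.0 to 66.0 CPM in subcutaneous and 0.0946 to 0.641 CPM in perirenal fat, a log2 fold change of 6.22 ± 0.37 (edgeR FDR = 4.7e-06). SPATC1 was 7.89 to 30.3 CPM in perirenal and at most 0.828 CPM in subcutaneous fat. SLC24A5, a cation exchanger whose span, shared with MYEF2, is 47563 bases long in both assemblies, was 35.9 to 64.2 CPM against 0.304 to 0.879 CPM.

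MKX, a homeobox factor of tendon, was 7.35 to 52.0 CPM in subcutaneous and at most 0.546 CPM in perirenal fat, in the same direction as TNMD. AQP4A, a water channel of fast muscle fibers, was 3.42 to 13.8 CPM in the 4 subcutaneous libraries of low muscle RNA and 27.1 to 307 CPM in the other 8, with 35.8 CPM on average in longissimus. The locus named for LDHB, a lactate dehydrogenase subunit, was 70.5 to 128 CPM in perirenal and 0.165 to 4.92 CPM in subcutaneous fat. It averaged 0.532 CPM in muscle and spans 1228 bases in the perirenal and 1018 bases in the subcutaneous assembly. Whether so short a locus stands for the whole gene was not tested. MXD1 was 14.6 to 25.4 CPM in subcutaneous and 0.0781 to 0.641 CPM in perirenal fat, where its locus is 4924 bases shorter.

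Under the same conditions, the differences of end-matched genes were smaller. After PAK3, the 11 highest-ranked that were higher in subcutaneous fat were SCIN, CENPI, ANGPTL5, S100A4, COL14A1, FGF7, SAMD4A, PID1, LIN37, RRM2B and PSAT1, with log2 fold changes in 4 pools from 2.96 to 1.38. S100A4, a calcium-binding protein of fibroblasts, was 48.2 to 390 CPM in subcutaneous and 19.4 to 60.4 CPM in perirenal fat. FGF7, a growth factor of mesenchymal cells that acts on epithelium, was 8.04 to 39.6 CPM against 3.5 to 11 CPM (1.72 ± 0.26, edgeR FDR = 0.00088). LIN37 averaged 626 CPM in muscle and ranged from 125 to 1563 CPM in subcutaneous fat, and its 12-pool log2 fold change turned to -0.085 with muscle share as a covariate. After SPATC1 and HOXA10, the 10 that were higher in perirenal fat were SHISA3, CCDC36, WDR90, ZNF710, H1FX, INTS1, DGAT1, MRPS2, GALK1 and CHID1, from -3.69 to -2.02. SHISA3, an antagonist of Wnt and FGF receptors, was 26.1 to 96.2 CPM in perirenal and 1.45 to 7.80 CPM in subcutaneous fat (-3.69 ± 0.37, edgeR FDR = 6.3e-05).

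Markers of other cell types were counted in the same fits. Endothelial markers were 2821 to 5139 CPM in sum in perirenal and 2622 to 4429 CPM in the 4 subcutaneous libraries (1070 to 4429 CPM in all 12), with KDR the highest gene. Of 12 tested, 7 were higher in perirenal fat over 12 pools and 1 over 4 pools. Smooth muscle and pericyte markers summed to 626 to 1566 CPM in perirenal and 695 to 1731 CPM in subcutaneous fat, led by RGS5, and 0 of 8 passed over 4 pools. Macrophage markers, led by MRC1, were 45.6 to 126 CPM against 50.2 to 149 CPM, and 0 of 8 passed over 4 pools. Lymphocyte markers were 21.1 to 45.3 CPM in perirenal and 8.25 to 21.1 CPM in subcutaneous fat, and CD3G was the 1 depot gene among 6 tested.

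Red cell markers, led by GYPC, were 165 to 274 CPM against 109 to 175 CPM, and ALAS2 and SLC4A1 were depot genes higher in perirenal fat. Schwann cell markers ranged from 75.4 to 5136 CPM in subcutaneous and 46.2 to 231 CPM in perirenal fat, and of 6 tested, 2 were higher in subcutaneous fat over 12 pools and 0 over 4. Kidney markers stayed at 3.97 to 10.3 CPM in perirenal fat and adrenal markers at 28.5 to 48.5 CPM, with UMOD, AQP2, SLC34A1, CYP11B1 and NR5A1 at 0 counts in all 24 libraries. Epidermal markers were 26.7 to 37.0 CPM in perirenal and 24.8 to 45.1 CPM in subcutaneous fat, led by KRT10, with KRT1 and DSG3 at 0 in all 24. The part of these cell types in the depot differences was not tested.

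The depot difference was also tested against diet and sex. With 2 depot by diet terms in the model, 0 of 12089 genes (0%) passed FDR ≤0.05 by edgeR, and 1603 had an unadjusted p under 0.05. With a depot by sex term, 3 genes passed (0.0248%) and 883 had an unadjusted p under 0.05. Each diet comparison rests on 4 pools, and the muscle share of the subcutaneous libraries differed between pools of the same diet, from 1.09% to 105% in HY, 1.33% to 124% in DG and 5.20% to 68.9% in CN.

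Of the 69 list members that were depot genes, 69 kept their direction when any 1 of the 4 pools was left out, 40 stayed past FDR ≤0.05 each time, and 27 are end-matched. Those that stayed include UCP1, PRDM16, ADRB3, DIO2, PRLR, HOXA10, HOXC10, GATA6, TBX5, TBX15, SHOX2, PRRX1, TNMD, NT5E, PDGFRB and SFRP4. The others lost the call in at least 1 fit. ACADL, DGAT1, DIO1 and TBX18 were called in 3 of the 4 fits, and CIDEA, COL12A1, CPT1B, CYC1, DCN, ECI1, FBLN2, FBN2, HSPG2, LTBP1 and PNPLA2 in 2. ACADS, COL11A1, COX5B, DKK2, EBF2, LUM, MCM5, NDUFA2, NDUFA8, NDUFS8, OSR2, PRELP, TNC and WNT11 were called in 1, and the highest FDR of any was 0.248, for EBF2.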

How the data were processed

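Of 36 RNA-seq libraries, 12 subcutaneous and 12 perirenal libraries were compared, with 12 muscle libraries as reference. The deposited values are raw read counts per locus, made by the authors from single-end reads on Oar_v3.1. Their processing notes name TopHat2 2.0.4, Cufflinks 2.1.1, which built loci per tissue, and HTSeq. Counting settings and strand are not given in the sources used here, so overlapping and antisense genes cannot be told apart. A span is that of all loci that overlap.

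Counts of loci with the same name were summed; unnamed loci (4.64% to 14.8% of counts) entered library totals only. Genes passing filterByExpr of edgeR 4.0.16 by depot (minimum count 10, minimum total 15) were scaled by TMM and tested by the robust quasi-likelihood F test with pool and depot as terms and Benjamini-Hochberg adjustment. SEs are the absolute log2 fold change over the square root of F. No libraries were copies (chi-square per degree of freedom of at least 13.2 over 132 pairs). The study lists its pools once, so equal codes were taken as the same fetuses in both depots; their deviations correlated across genes at a median of 0.052 (-0.28 to 0.30), and 2 of 12 correlated best with their own code. Pools sharing dams are not independent, so p-values measure the spread between pools.

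Members and lists were chosen with earlier results of these data known. The 4 pools (muscle share under 10%), depot genes and the end-matched condition were chosen after seeing the data. Genes were named by size (12 largest changes in each direction at FDR ≤0.05, at least 5 CPM in the higher depot, no overlap, spans matching to 0.8, not set aside), by list (the 5 highest members past FDR ≤0.05 and 2-fold that were not set aside, and the first gene; all such HOX and positional members) and, after seeing values, as depot genes of a list or by their rank among depot genes. Some genes that these rules name are not reported here. Scripts were tested on simulated data. Alternatives were RLE, no filter, DESeq2 1.42.0, no block, muscle share as covariate, matching spans, each pool left out, each diet and each sex.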

Additional observations from a re-analysis of the deposited data

Results flagged for a closer look

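The depot difference of 3 genes differed between the sexes by the depot by sex term of the edgeR fit over 12 pools (6 female and 6 male). MYL3, a myosin light chain of slow and cardiac muscle, had a log2 fold change of 5.15 in female and 0.38 in male pools (edgeR FDR = 0.00652). It was 0 to 1.61 CPM in female and 0.933 to 19.5 CPM in male perirenal fat, 6.57 to 48.0 CPM in female and 3.25 to 22.1 CPM in male subcutaneous fat, and 71.5 CPM on average in longissimus, and muscle RNA share was not in that model. FNDC5, a muscle-expressed membrane protein, had 0.96 in female and -0.42 in male pools (edgeR FDR = 0.0205), and GPT, alanine aminotransferase, 0.90 and -1.05 (edgeR FDR = 0.0266). FNDC5 was 11.9 to 23.1 CPM in female and 19.7 to 35.6 CPM in male perirenal fat, and GPT 6.63 to 14.5 CPM and 13.5 to 23.1 CPM. The muscle share of perirenal fat was 0.0354% to 0.0779% in female and 0.131% to 0.550% in male pools. Sex and muscle share therefore cannot be told apart in perirenal fat. In subcutaneous fat the share was 1.09% to 124% in female and 1.33% to 108% in male pools. With 1 pool left out, the number of genes was 1 without CF1, CF2, CM1, DF1, DM1, HF2, HM1 or HM2, and 8 without DM2.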

How the results depend on the processing

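Counts of genes higher in subcutaneous and genes higher in perirenal fat were 874 and 957 with muscle share as covariate, 1175 and 1167 in the 4 pools of low muscle RNA, 2407 and 2444 in CN, 1010 and 832 in HY, and 1479 and 1457 at 2-fold or more, while 2469 were higher in subcutaneous fat in male pools. Without the replicate block they were 4066 and 3766, so pairing by pool code moved neither count by over 1.5 times. With each pool left out in turn they ranged from 3514 to 3957 and from 3596 to 3985. For genes higher in subcutaneous, muscle set aside, and genes higher in perirenal, muscle set aside, the counts were 3107 and 3834 when a muscle to perirenal ratio of at least 4 set genes aside, and 1794 in perirenal fat at an explained share of 0.5.

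The depot genes higher in subcutaneous fat numbered 264 with a muscle to perirenal ratio under 4. Together with depot genes higher in perirenal fat they numbered 279 and 281 at FDR ≤0.01, 991 and 1071 without a condition on loci, and 85 and 159 with end-matched loci. With 1 of the 4 pools left out they ranged from 315 to 487 and from 329 to 757, the perirenal count being 329 without CM1 and 363 without DM1. With 1 pool left out, depot by diet genes ranged from 0 to 3 (1 without CM1, 3 without HF2) and depot by sex genes from 1 to 8.

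With muscle share as covariate and within HY, the counts of genes called in each list were 3 and 6 against 11 thermogenic, 2 and 3 against 12 adipocyte, 3 and 5 against 11 fatty acid synthesis, 3 and 1 against 11 fatty acid oxidation, 9 and 2 against 23 respiratory chain, 2 and 1 against 5 citrate cycle, 6 and 7 against 14 HOX, 12 and 14 against 20 positional, 5 and 9 against 42 matrix, 5 and 3 against 10 progenitor, 7 and 6 against 23 signaling, 5 and 6 against 17 hormone and 0 and 1 against 11 cell division genes, the number after "against" being that called over 12 pools.

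Of 141 named genes, 51 lost their call with muscle share as covariate and 50 within HY, 15 in female pools, 10 in DG, 8 in CN, 4 in the 4 pools and 3 in male pools. A total of 3 changed direction under some setting. The log2 fold change of ACLY was 0.089 with no replicate block, 1.02 with the covariate, 0.27 in CN, 0.070 in HY and 0.24 in the 4 pools, and ranged from -0.167 to 0.091 with 1 pool left out, above 0 without CF2 (0.033), DF1 (0.091) or HM1 (0.033). With the covariate it was 0.27 for ADIPOQ and -0.085 for LIN37. The causes were not tested.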
